A study of Mus musculus with 6 samples.

Results

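Fibronectin, laminin, collagen IV and integrin genes were examined for peaks of RNA pulled down with AGO2, an Argonaute protein guided to its target RNAs by microRNAs (miRNAs). The 10 genes were Fn1, Lama1, Lama5, Lamb1, Lamc1, Col4a1, Col4a2, Hspg2, Itga5 and Itgb1. A peak was assigned to a gene when its midpoint lay within the RefSeq span of that gene on GRCm38, the assembly of the mm10 build that the peak list uses. By this rule 35 of the 3292 listed peaks (1.06%) lay in these genes. Of the 10 genes, 5 had a peak and 5 had none.

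The cells were mouse embryonic stem cells of a line with the genotype Spy3-Ago2, grown on gelatin in medium with serum and the cytokine LIF, which holds them in the undifferentiated state. From it came 2 target libraries and 2 miRNA libraries, prepared from RNA pulled down with Spy3-AGO2 on SpyCatcher3 resin, to which the tag binds by a covalent bond, and 2 input libraries from whole lysate. All 6 libraries are labelled with this genotype, the input included, and the labels do not say whether replicates were separate cultures or how many clones the line stands for. The peaks are 1 list for the whole series with no value per library, so neither a replicate spread nor the depth behind a peak is known here. The miRNA with the most counts in the pull-down was miR-290a-5p, of a cluster characteristic of mouse embryonic stem cells. It had 23.8% ± 0.40 of the miRNA counts (SD, n = 2).

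Fibronectin is a secreted glycoprotein that cells assemble into fibrils by way of integrins, the paired alpha and beta receptors that join the matrix to the cytoskeleton. Laminins, each a trimer of an alpha, a beta and a gamma chain, polymerise beside a network of collagen IV to form the basement membrane, which perlecan and nidogens tie together. Embryonic stem cells attach to both kinds of matrix, and a basement membrane is among the first structures that differentiating cells of the early embryo lay down. AGO2 with its miRNA typically pairs with the 3' untranslated region of a messenger RNA, which lies at the downstream end of the gene, although sites in coding sequence are known.

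The genes were chosen by their role in the matrix and selected on the number and positions of their peaks, which were known, so all counts and positions below are descriptions without a test. Of all 21900 protein-coding genes, 8.3% had at least 1 peak. Among the 7701 genes whose span was between that of the shortest member (22506 nt) and that of the longest (136483 nt), 12.9% had a peak and 4.78% had at least 2. All 5 members with a peak had at least 2.

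**Figure D1:**
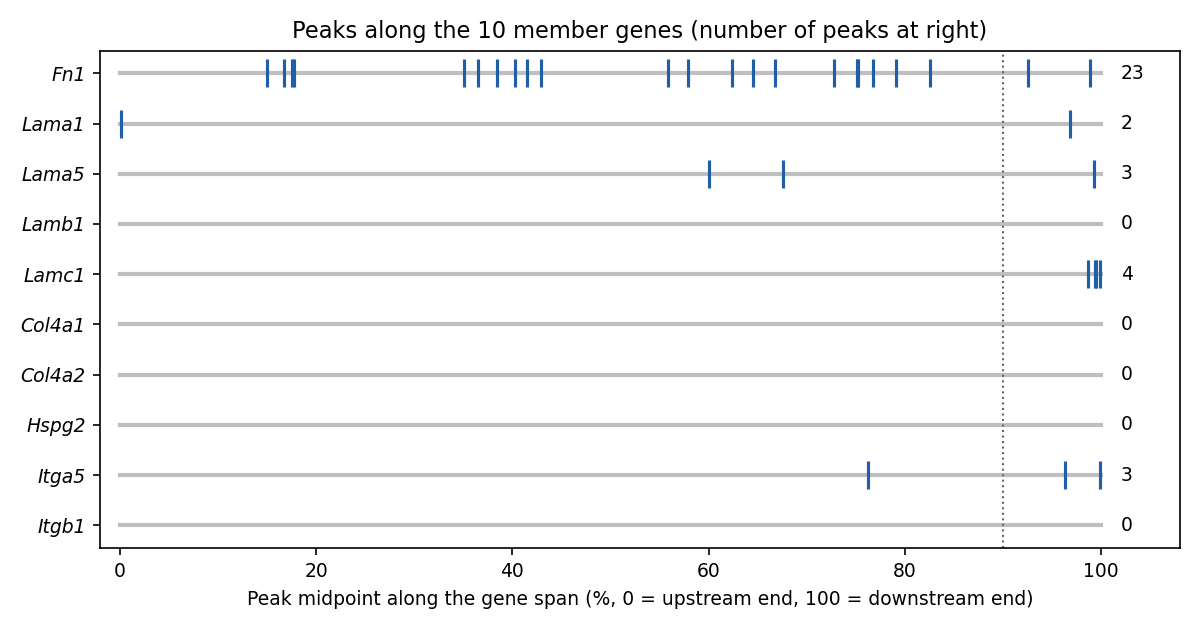
Each row is 1 of the 10 genes, drawn from its upstream end (0%) to its downstream end (100%), and each vertical mark is the midpoint of 1 peak, with the number of peaks at right and a dotted line at 90%. The 23 marks of Fn1 run from 15.0% to 98.9% of the span, the 4 marks of Lamc1 crowd the downstream end, and 5 rows are empty.

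Fn1, which encodes fibronectin, held 23 of the 35 peaks. Its span of 67808 nt lies on chromosome 1 (71585473 to 71653280), and all 23 peaks were on the minus strand. They amounted to 3.39 peaks per 10 kb and covered 1319 nt, or 1.95% of the span. The outermost peaks were 56985 nt apart, 84.0% of the span. At the upstream end, the first 10128 nt of the gene held no listed peak.

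The peaks of Fn1 were unevenly spread over the gene body. With stretches of more than 4000 nt between peaks taken as breaks, a limit set after the positions were seen, they fell into 6 runs, of which 4 held 2 or more peaks and together held 21 of the 23. The peak nearest to the downstream end stood alone at 71586168 to 71586284, with its midpoint 753 nt from the end and a width of 117 nt. It was followed by another lone peak of 52 nt at 5118.5 nt from the end. These were the 2 peaks of Fn1 in the last 10% of the span.

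Further upstream, 6 peaks lay between 71597282 and 71603930, at 11822.5 to 18430.5 nt from the end. The closest pair of the gene was in this run, with 29 nt between the peak ending at 71602336 and the one starting at 71602366. The next run held 5 peaks between 71607994 and 71615399. A stretch of 8679 nt without a peak parted it from the following 6 peaks, at 71624079 to 71629492. That run opened with the widest peak of all 10 genes, 199 nt at 71624079 to 71624277, which lay 38705 nt from the downstream end. The longest stretch without a peak inside Fn1, 11660 nt, came next. Beyond it the last run held 4 peaks within 2000 nt, from 71641153 to 71643152, including a pair parted by 93 nt.

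The median gap between neighbouring Fn1 peaks, edge to edge, was 1344 nt over 22 gaps. Of these gaps 2 were under 100 nt and 6 under 1000 nt. All distances are genomic and include introns, so on the spliced messenger RNA neighbouring peaks in different exons are closer than given here. Exons were not used here, so it is not known which peaks lie in an exon or an intron, or which share an exon.

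**Figure D2:**
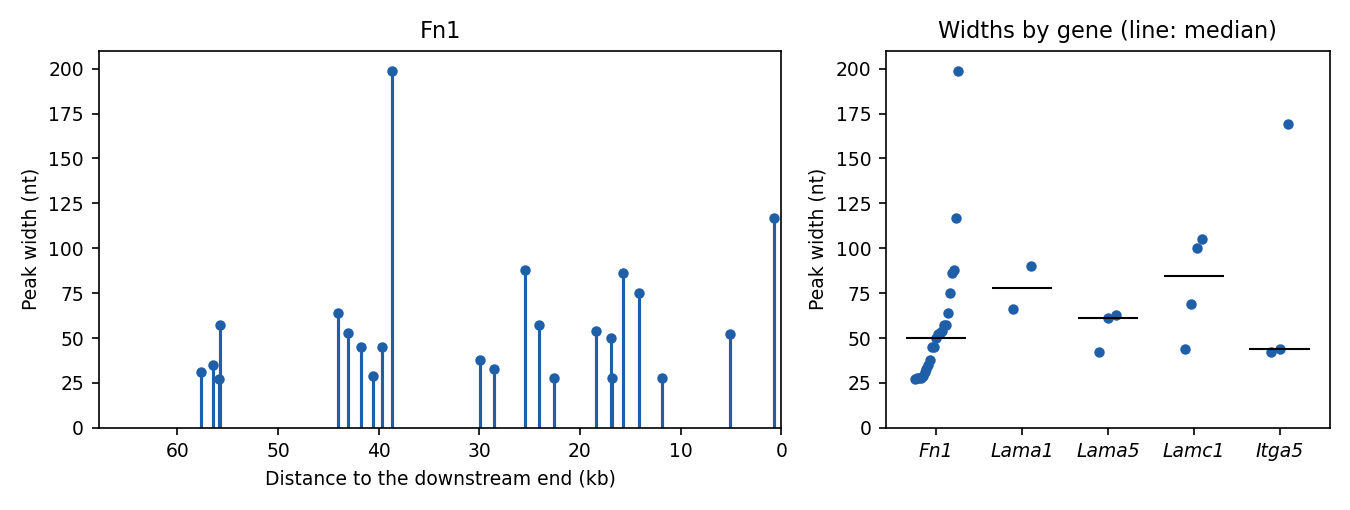
The left panel plots the width in nt of each Fn1 peak against the distance in kb from its midpoint to the downstream end of the gene, with the downstream end at right. The right panel plots the width of every peak of the 5 members with peaks, with a line at the median. The widest peak of Fn1, 199 nt, lies in the gene interior, and the widest of Itga5 is 169 nt.

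Among the laminin genes, the chain that showed the most peaks was gamma 1. Lamc1, which encodes the gamma chain of most laminins, spans 113865 nt of chromosome 1 (153218922 to 153332786) and had 4 peaks on the minus strand. All 4 lay within 1432.5 nt of the downstream end, at midpoint distances of 114, 547.5, 681 and 1432.5 nt. Together they took up 1403 nt from first to last, 1.23% of the span. Their widths were 69, 44, 105 and 100 nt, and 59 nt parted the peaks at 547.5 and 681 nt. Upstream of these, from 0% to 98.7% of the span, Lamc1 had no listed peak.

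Lama5, which encodes the alpha 5 chain of laminin-511, a laminin on which pluripotent cells attach well, had 3 peaks on the minus strand of chromosome 2 (span 180176373 to 180225904). A peak of 61 nt lay 360 nt from the downstream end. The other two, of 63 and 42 nt, were in the interior at 67.6% and 60.0% of the span, with 3729 nt between them. So 1 of the 3 peaks of Lama5 was in the last 10% of the gene, against all 4 of Lamc1.

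Lama1, which encodes the alpha 1 chain of laminin-111, the early embryonic laminin, had 2 peaks on the plus strand of chromosome 17 (span 67697127 to 67822645). They stood at opposite ends of its 125519 nt. The peak at 67697270 to 67697335 was 175.5 nt from the upstream end, the only one of the 35 in the first 10% of a span. The other, 90 nt wide at 67818625 to 67818714, was 3975.5 nt from the downstream end. The 121289 nt between them held no listed peak.

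Lamb1, which encodes the beta 1 chain that pairs with gamma 1 in both laminin-111 and laminin-511, had no peak in its 64499 nt on chromosome 12 (31265146 to 31329644). The nearest listed peaks were 596828 nt away on the right, in the overlapping spans of Cog5 and Hbp1, and 1282803 nt away on the left, in Pxdn. The 3 chains of laminin-511 thus had 3 (alpha 5), 0 (beta 1) and 4 (gamma 1) peaks, and those of laminin-111 had 2, 0 and 4.

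Neither gene of collagen IV, the network-forming collagen of basement membranes, had a peak. Col4a1 (11198423 to 11312889) and Col4a2 (11312805 to 11449287) lie next to each other on chromosome 8 and are transcribed in opposite directions from a shared promoter region. The nearest peak was 173094 nt beyond Col4a2, in Ankrd10. On the other side it was 2520138 nt from Col4a1, in Arglu1. Hspg2, which encodes perlecan, a heparan sulfate proteoglycan of basement membranes, had no peak in its 101880 nt on chromosome 4 (137468751 to 137570630) either, and the nearest was 171541 nt away in Alpl.

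Integrin alpha 5 and beta 1 together form the main fibronectin receptor. Itga5 had 3 peaks on the minus strand within the shortest span of the set, 22506 nt on chromosome 15 (103344286 to 103366791), which gave 1.33 peaks per 10 kb. A peak of 42 nt, at 103344294 to 103344335, lay almost at the downstream end of the gene, with its midpoint 28.5 nt from it. A peak of 169 nt at 103345042 to 103345210 lay 840 nt from the end. The remaining peak, of 44 nt, lay 5348.5 nt from the end at 76.2% of the span. Itgb1 had none in its 47926 nt on chromosome 8 (128685654 to 128733579). The nearest peak to Itgb1 was 2094918 nt to the left, in Irf2bp2, and no listed peak lay between Itgb1 and the end of the chromosome. Of this receptor and its ligand, Itga5 thus had 3 peaks, Itgb1 had 0 and Fn1 had 23.

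No member gene had a peak that just missed it. The closest listed peak outside any of the 10 spans lay 13931 nt from Lama5, in Osbpl2, and the next closest 125521 nt from Lamc1, in Dhx9. Every one of the 35 peaks was in exactly 1 annotated gene of any kind, and within each gene all peaks were on 1 strand. For Lama5 and Itga5, whose gene strand was given in the RefSeq promoter table, all 6 peaks were on the strand of the gene. Over the series 2440 of 2464 peaks (99%) with a known gene strand were. For Fn1, Lama1 and Lamc1 the direction of the gene was taken from the peaks themselves.

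Compared by position, Fn1 and the other members with peaks, the latter pooled, stood on either side of the rest of the series. Of the 35 member peaks, 10 (28.6%, exact Clopper-Pearson 95% interval 14.6 to 46.3, counting error only) lay in the last 10% of the span, against 1265 of 3035 (41.7%, 39.9 to 43.5) for peaks in exactly 1 other nuclear protein-coding gene. In Fn1 alone this share was 8.70% (2 of 23), and in Lama1, Lama5, Lamc1 and Itga5 together 66.7% (8 of 12, 34.9 to 90.1), of which Lamc1 gave 4. Within 2000 nt of the downstream end lay 1 peak of Fn1 and 7 of the other 12 (58.3%), against 36.1% in the rest of the series. The genes of the rest were of any span and were not matched to the members by it. The last 2000 nt and the last 10% can thus be unlike parts of a gene in members and rest. The median position was 57.9% of the span in Fn1 and 97.8% in the other members, against 83.7% in the rest. Peaks of 1 gene share a transcript, so the intervals are too narrow as a measure of how genes vary. With each gene weighted equally, the share in the last 10% was 51.7% in the members and 42.6% in the rest, so the pooled share below the rest came from Fn1. No test of the difference was made.

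**Figure D3:**
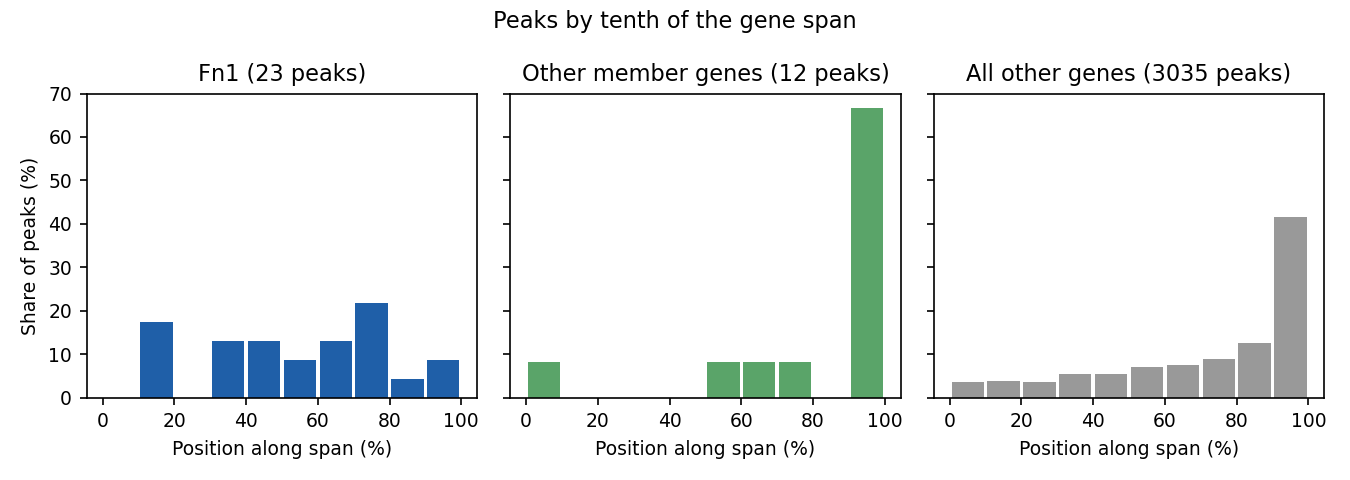
Bars give the share of peaks in % in each 10% of the gene span, from the upstream (left) to the downstream end (right), for Fn1, for the other member genes and for all other genes. Of the peaks in other members 66.7% are in the last 10% of the span, against 41.7% in all other genes, while in Fn1 the stretch from 70% to 80% holds most, 21.7%, and the last 10% holds 8.70%.

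Fn1 had the most peaks of the nuclear protein-coding genes. Of the 94 nuclear genes with at least 5 peaks, the other 93 had at most 16. A smaller share in the last 10% of the span than in Fn1 was seen in 18 of the 93, and the median share over all 93 was 33.3%. The stretch from first to last peak covered more of the span than in Fn1 in 17 of the 93, and the median over all 93 was 54.0%. Such a stretch tends to widen with the number of peaks, and the 93 genes, all with fewer peaks, were not matched to Fn1 by it. The median gap of Fn1, 1344 nt, was near the middle of these genes, since 48 of the 93 had a larger one and their median was 1497 nt. These counts are not scaled by the abundance or length of the messenger RNA, which were not measured here.

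The widths of member peaks overlapped those of the rest. Their median width was 53 nt, with quartiles of 40 and 72 nt and a range from 27 to 199 nt, against a median of 59 nt and quartiles of 45.5 and 85 nt in the rest. At least 100 nt were reached by 5 of 35 (14.3%), against 17.4% in the rest. Both comparisons turned without Fn1, where the median was 64.5 nt and 3 of 12 (25%) reached 100 nt, while in Fn1 2 of 23 (8.70%) did. The 10 member peaks in the last 10% of a span had a median width of 79.5 nt and the 25 further upstream one of 45 nt. Fn1 gave 2 of the 10 and 21 of the 25, so this contrast is largely one between genes. The medians were 84.5 and 45 nt in Fn1, and 79.5 and 53.5 nt in the other members, over 8 and 4 peaks. In the rest of the series they were 63 and 56 nt. In Fn1 the median width was 50 nt, in Itga5 44 nt, in Lama5 61 nt, in Lama1 78 nt and in Lamc1 84.5 nt, and the ranges of Lamc1 (44 to 105 nt) and Fn1 (27 to 199 nt) overlapped.

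The gaps between neighbouring peaks were also set beside those of the rest, without a test and without matching genes by span. A gap under 100 nt separated 3 of 30 neighbouring pairs (10.0%), 2 in Fn1 and 1 in Lamc1, against 20.0% of 1323 pairs in the rest. A gap under 1000 nt separated 10 of 30 (33.3%), against 45.5%. The median gap was 1344 nt in the members and 1479 nt in the rest. Fn1 gave 22 of the 30 gaps, and without it both values stood on the other side of the rest, with 4 of 8 gaps (50%) under 1000 nt and a median of 2217.5 nt.

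Other genes of the matrix and of its attachment to cells were taken from 4 lists, which were chosen with earlier results of these data known. Of 88 listed genes 16 (18.2%) had a peak, 34 peaks in all, beside 8.3% of all protein-coding genes. Of the 49 with a span in the range of the members, 13 (26.5%) had one, beside 12.9% of all genes in that range. In the last 10% of a span lay 21 of the 34 peaks (61.8%), beside 41.7% for the rest of the series. Within 2000 nt of the downstream end lay 15 of the 34, beside 1095 of 3035 (36.1%). None of these differences was tested. Both shares of the rest are over peaks in exactly 1 protein-coding gene, a limit not set for the 34. They include those of the 34 that meet this limit, and their genes were not matched by span. Among 32 other basement membrane and matrix genes, 6 had a peak. Agrn, which encodes the proteoglycan agrin, had 3, all between 150.5 and 877.5 nt from its downstream end. Nid1 and Nid2 encode the nidogens that link laminin to collagen IV. Nid1 had 2, the nearer 449.5 nt from the end, and Nid2 had 1 at 92.5 nt from it, in a stretch that a second protein-coding gene overlaps. Dag1, which encodes the laminin receptor dystroglycan, had 1 at 4632 nt from the end. Single peaks in Pxdn, whose product crosslinks collagen IV, and in Vcan, which encodes versican, were in the interior, 35340 and 47769 nt from the end.

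Of 21 other integrin and matrix receptor genes, 2 had a peak, both alpha subunits that pair with beta 1 among others. Itga6, which encodes a laminin receptor subunit, had 1 of 136 nt at 1253.5 nt from the downstream end. Itgav, which encodes the alpha v subunit of receptors for vitronectin and fibronectin, had 1 at 3158.5 nt. The remaining 19, among them Itgb3, Itgb5 and Sdc4, had none.

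Among 20 adhesion complex genes, whose products link integrins to actin, 6 had a peak. Tns3, which encodes tensin 3, had 9, from 58 to 106419 nt from its end, 5 of them in the last 10% of the span. Actn1 and Actn4, which encode alpha-actinins, and Flna, which encodes filamin A, had 2 each, none within 2000 nt of the end. Vcl, the vinculin gene, and Bcar1, which encodes the adaptor p130Cas, had 1 each. Tln1, Ptk2 and Ilk, which encode talin 1, focal adhesion kinase and integrin-linked kinase, had none. Of 15 genes for collagen folding and crosslinking, Colgalt1, which encodes a collagen galactosyltransferase, had 4 peaks between 683.5 and 1342 nt from its end, and at least 1 of the 4 also lay in a second protein-coding gene. Hsp90b1, which encodes a chaperone of the endoplasmic reticulum, had 2, and the remaining 13 had none.

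**Figure D4:**
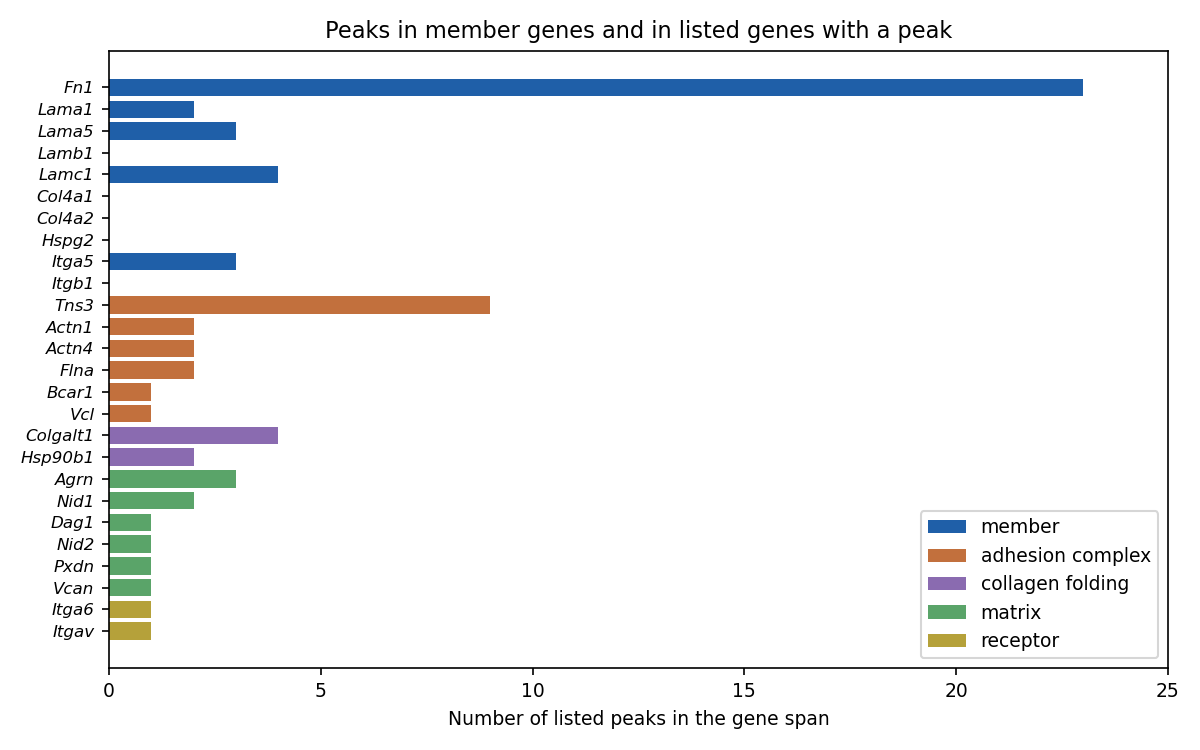
Bars give the number of listed peaks in the span of each of the 10 member genes (top) and of the 16 listed matrix, receptor, adhesion and collagen folding genes that had a peak. Fn1 has 23, Tns3 has 9, Lamc1 and Colgalt1 have 4 each, and 5 members have none.

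Several miRNAs are reported to act on these genes. The miR-29 family is known to repress collagen genes, and in human cells LAMC1 as well. FN1 is a reported target of miR-200c, ITGA5 of miR-31 and miR-148b and ITGB1 of miR-183, all in human cells, while miR-124 is known to act on the laminin gamma 1 and integrin beta 1 genes in the chick neural tube. For miR-29, miR-200, miR-31, miR-148b and miR-183, mature sequences from RefSeq (GRCm38.p6) are shown because the seed, bases 2 to 8 and printed in capitals, is what a seed-matched target site pairs with. For miR-124-3p and miR-1a-3p no sequence is shown.
miR-29a-3p: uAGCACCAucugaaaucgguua
miR-29c-3p: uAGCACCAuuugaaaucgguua
miR-200b-3p: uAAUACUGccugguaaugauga
miR-200c-3p: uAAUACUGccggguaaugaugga
miR-31-5p: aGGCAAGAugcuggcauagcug
miR-148b-3p: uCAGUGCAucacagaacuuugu
miR-183-5p: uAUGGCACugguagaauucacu

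The 3 names of the miR-29 family share 1 seed and held 0.517% and 0.611% of the counts of replicates 1 and 2, a mean of 0.564% ± 0.0661 (SD, n = 2 here and below). miR-29a-3p, encoded on chromosome 6 (31062673 to 31062694, minus strand), made up most of it with 0.328% ± 0.0292. miR-200b-3p, miR-200c-3p and miR-429-3p, which share a seed, held 0.401% and 0.438%. The means of these families were 0.564% and 0.420%, and the difference between them was not tested.

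miR-148a-3p, miR-148b-3p and miR-152-3p held 0.109% and 0.105%, of which miR-148b-3p, encoded on chromosome 15 (103285185 to 103285206, plus strand), had 0.0152% ± 0.0017. miR-31-5p had 0.123% and 0.114%. miR-183-5p was less even, with 0.692% in replicate 1 and 1.39% in replicate 2, and so was miR-124-3p with 0.899% and 1.57%. The 8 let-7 names held 0.0171% ± 0.0024. miR-1a-3p had 20 and 39 counts and miR-206-3p 0 and 4 counts. These are shares of the read counts in the AGO2 miRNA libraries, not measured amounts of miRNA, and they do not say where AGO2 bound. The sequence under the peaks was not used here, so no peak of a member gene is tied to any of these miRNAs.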

How the data were processed

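Per the labels' protocols, RNA was isolated with Spy3-AGO2, cut from a gel, ligated to adapters with random bases and sequenced as single-end reads. The deposited peak list gives position and strand, and the score column that the authors deposited is 0 for every peak, so peaks could not be ranked. For the miRNA libraries the authors deposited raw counts per mature miRNA, 12562727 in replicate 1 and 22908172 in replicate 2. The submitters' processing notes name the aligners STAR 2.5.2a and Bowtie2 2.4.2, the read tools cutadapt 2.10 and UMI-tools, the packages deepTools 3.1.3 and DESeq2 1.36.0, and mm10, without a role. Neither the peak caller nor any use of input libraries is stated in the sources used here.

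Peak midpoints were assigned to spans of 49997 genes (RefSeq, GRCm38.p6), with coordinates counted from 1 and position read along the strand of the peak. The placement code was checked on simulated points of 1 nt inside known gene spans and returned 200 of 200 at their position. Overlap with a second gene, peak width and gene strand were not part of this check. A gap is the number of bases between neighbouring peaks of 1 gene and strand. The members and lists were chosen with earlier results of these data known, and no differences were tested. All 10 members, every listed gene with a peak and the listed miRNAs were to be named. Other genes were named after their values were seen, as neighbours or as examples without a peak. No genome was used here, so a planned search for seed matches in peaks was not run. Python 3.11.15, numpy 2.4.6, pandas 2.3.3, scipy 1.17.1 and matplotlib 3.10.9 were used.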

Additional observations from a re-analysis of the deposited data

How the results depend on the processing

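The 35 peaks of the member genes stayed 35 when any overlap with the span counted and when only the main strand of each gene counted, and became 32 when peaks less than 100 nt apart were merged. The share in the last 10% of the span was 28.6% over all 35 peaks, of which Fn1 holds 23. It was 51.7% with each gene weighted equally (42.6% in the rest of the series) and 66.7% without Fn1. With the last 2000 or 5000 nt in place of the last 10% it was 22.9% and 25.7%. The median gap of 1344 nt was 2217.5 nt without Fn1, over 8 gaps. The median position of 67.6% was 97.8% without Fn1, and the median distance to the downstream end, an alternative chosen after seeing the data, was 1136.25 nt in place of 18430.5 nt. Median width was 59 to 64.5 nt under its alternatives, against 53 nt, and the 16 listed genes with a peak stayed 16. The summed share of the 22 listed miRNAs, 3.50% on average, ranged from 2.76% to 4.24% with either replicate left out. No paired analysis was possible because the peak list has no value per library and the miRNA libraries form 1 group. The search for seed matches was not run, so neither were its alternatives. The depth behind the peaks is unknown, so a gene without a peak is not shown to be unbound, and its abundance in these cells was not measured here.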

Other observations

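Peaks are named by number up to 30438, while 3292 are listed, and the numbers rise with position on each of the 43 chromosome strands that have a peak. The numbers from the first to the last listed peak of Fn1 run from 1143 to 1222, so 23 of 80 numbers (28.8%) are listed there. Of the other 93 genes with at least 5 peaks, 2 had all their peaks on 1 strand and spanned more numbers. Genes with peaks on both strands were not counted in this comparison. For the other genes, here and below, only peaks in exactly 1 protein-coding gene count. In Lama5 3 of 50 numbers are listed, in Lama1 2 of 13, in Lamc1 4 of 11 and in Itga5 3 of 9. Over the 5 genes 35 of 163 numbers (21.5%) are listed, against 1918 of 5961 (32.2%) over 597 other genes with at least 2 peaks on 1 strand. Fn1 and Lama5 account for most of the 163. The median share per gene was 28.8% over the 5 genes and 50% over the other 597. The first and last number of each range are listed by definition, so this share tends to be higher in genes with few peaks. Genes were not matched by number of peaks, and Fn1 has 23. Of all numbers up to 30438, 10.8% are listed.

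For 4 of the 5 members without a listed peak, the numbers on either side set an upper limit. Between the listed peaks that flank Col4a1 on its strand, 9 numbers are not in the list, and for Col4a2 14, for Lamb1 9 and for Hspg2 111. For Itgb1, which no listed peak follows on its strand of the chromosome, flanking peaks on that strand set no such limit. The last listed number before it there is 13596, and 13628 is already on the other strand of chromosome 8, before Col4a1. Whether the numbers run on from one strand to the other was not examined. The stretches around the other 4 also hold other genes, so the numbers need not lie in the members. The sources do not say what the unlisted numbers stand for.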
